A study of Mus musculus with 90 samples.

Results

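The genes described here are 10 genes of serine synthesis, one-carbon metabolism and the ATF4 response, Mthfd2, Phgdh, Psat1, Psph, Shmt1, Shmt2, Asns, Atf4, Ddit3 and Chac1, out of 35869 genes in the deposited expression table. They were taken by symbol, and all 10 were found. The set was selected on the measured TPM of Mthfd2, which had been seen to be higher in knockout than in wild-type cells that did not look like megakaryocytes, so that contrast is given below as a description only. The study asked what blood stem cells that carry CD41, a platelet integrin subunit, become after loss of RUNX1, a transcription factor of blood development. Single cells were picked after culture as megakaryocyte-like (MK, the platelet-forming type) or not (NMK), and each cell gave 1 SMART-Seq library, a full-length RNA method. Knockout (KO) cells came from mice of genotype MxCre1+/-,RUNX1f/f and wild-type (WT) cells from mice of genotype MxCre1-/-,RUNX1f/f. All groups therefore carried the floxed Runx1 allele, and mice of both genotypes received 4 injections of poly(I:C), an interferon inducer that switches on Cre from the Mx1 promoter. Stem cells were sorted from bone marrow 4 weeks after injection and cultured for 2 days. The table held 5 KO MK, 6 WT MK, 13 KO NMK and 9 WT NMK libraries, with the ages of the mice not given in the labels.

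Cells make serine from a glycolytic intermediate through PHGDH, PSAT1 and PSPH in turn. The SHMT enzymes then pass a carbon of serine to folate, SHMT1 in the cytosol and SHMT2 in mitochondria, where MTHFD2 oxidises the folate-bound carbon on its way to purine and thymidine synthesis. ATF4 is a transcription factor whose translation increases when eIF2 is phosphorylated under amino acid shortage or endoplasmic reticulum stress. Its known targets include ASNS, which makes asparagine, DDIT3 (CHOP), a transcription factor of stressed cells, CHAC1, which breaks down glutathione, and the mitochondrial and serine enzymes named above.

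The labels give no animal or culture for a cell, so each group counts as 1 sample, no test was made, and every error below is the spread between cells. Values are TPM, which keep no record of depth. Housekeeping genes averaged 9.43 to 9.88 on the log2(TPM + 1) scale in KO MK libraries, 9.30 to 9.80 in WT MK libraries and 8.83 to 9.55 in WT NMK libraries. In KO NMK libraries they averaged 9.57 to 10.35, except for 4.86 in library B1-1b and 1.95 in library B1-2a. Results with KO NMK cells include these libraries unless stated otherwise, and some are also given without them. Mitochondrial transcripts made up 91.6% of B1-1b. Of the KO MK libraries, B1-4 and 2 held 65.8 and 213.7 TPM of the platelet factor gene Pf4, against at least 12512.8 TPM in every WT MK library, and they held the stem cell genes Kit (54.0 and 21.0 TPM) and Ly6a (199.0 and 342.2 TPM). The other KO MK libraries had 13751.7 to 26884.7 TPM of Pf4, with Kit at 0 and Ly6a at 0.1 TPM or less. Runx1 itself had medians of 12.6, 11, 6.7 and 5.3 TPM in KO MK, WT MK, KO NMK and WT NMK libraries, and since a gene-level value can hold reads from exons outside a deleted stretch it does not check the genotype. Detected genes numbered 11896 to 14487 in KO MK, 14089 to 15252 in WT MK, 3011 to 10987 in KO NMK and 5475 to 11715 in WT NMK libraries. The prefix B1 in library titles, whose meaning the labels do not give, stands on 2 KO MK, 1 WT MK, 5 KO NMK and no WT NMK libraries.

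A difference is the mean log2(TPM + 1) of the first group minus that of the second, and a gene was called when this was at least 1 and larger than the pooled SD between cells. In WT cells, the mitochondrial enzymes Mthfd2 and Shmt2, the serine enzyme Psat1 and the asparagine enzyme Asns were higher in MK than in NMK cells, and Phgdh, the first enzyme of serine synthesis, was lower. In MK cells, Shmt1 and Asns were lower in KO than in WT. In NMK cells Mthfd2 was higher in KO than in WT, which is how the set was chosen. Between KO MK and KO NMK cells, only Chac1 of the 10 was called, and its call rested on 2 MK libraries, the only ones in which it reached 1 TPM. The plot of differences shows the 10 genes in the 4 comparisons.

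**Figure D1:**
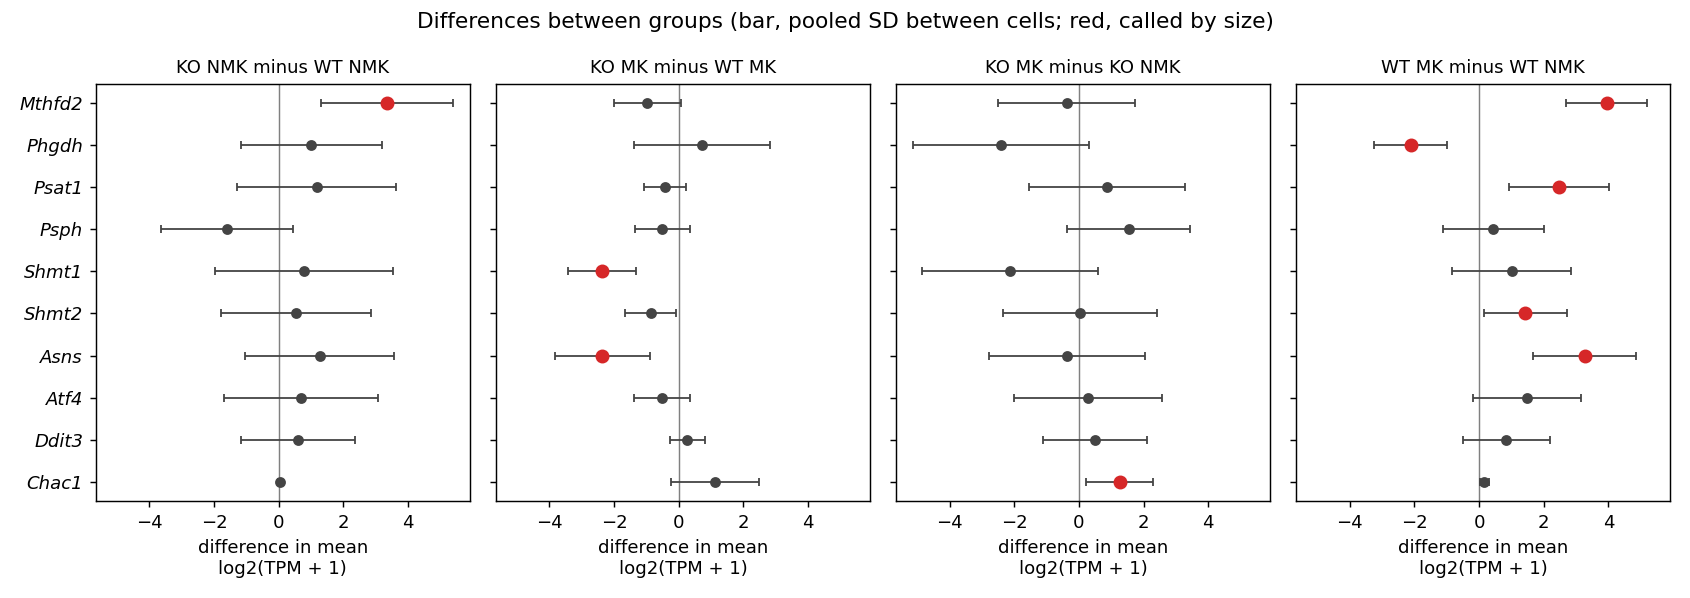
Difference in mean log2(TPM + 1) for each gene (rows) in the 4 comparisons (panels), with the pooled SD between cells as the bar and called genes in red. Mthfd2 is called in both panels set against WT NMK cells, at 3.36 in KO NMK and 3.95 in WT MK cells, and Shmt1 and Asns lie at -2.36 in KO MK against WT MK cells.

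These calls stand against a background of all measured genes, those with an average of 1 TPM in either group. Between WT MK and WT NMK cells, 4 of the 9 measured members were higher and 1 was lower, beside 25.6% of 11562 genes higher and 3.33% lower. Their median difference was 1.43, against 0.70 over all measured genes. Between KO MK and WT MK cells, none of 10 was higher and 2 were lower, beside 9.74% of 11796 genes higher and 7.07% lower, with medians of -0.51 and 0.09. Between KO MK and KO NMK cells, 1 of 10 was higher, beside 13.3% of 13365 genes higher and 0.614% lower, with medians of 0.16 and 0.59. Without KO NMK libraries B1-1b and B1-2a, 1 of 10 was higher and 2 were lower, with medians of -0.46 and 0.36. Of all measured genes, 12.7% were then higher and 3.35% lower. Between KO NMK and WT NMK cells, 1 of 9 was higher and none was lower, beside 2.52% of 12835 genes higher and 2.19% lower, and nothing is read from that count. The 4 comparisons share groups in pairs, so their values for a gene are not independent of each other.

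**Figure D2:**
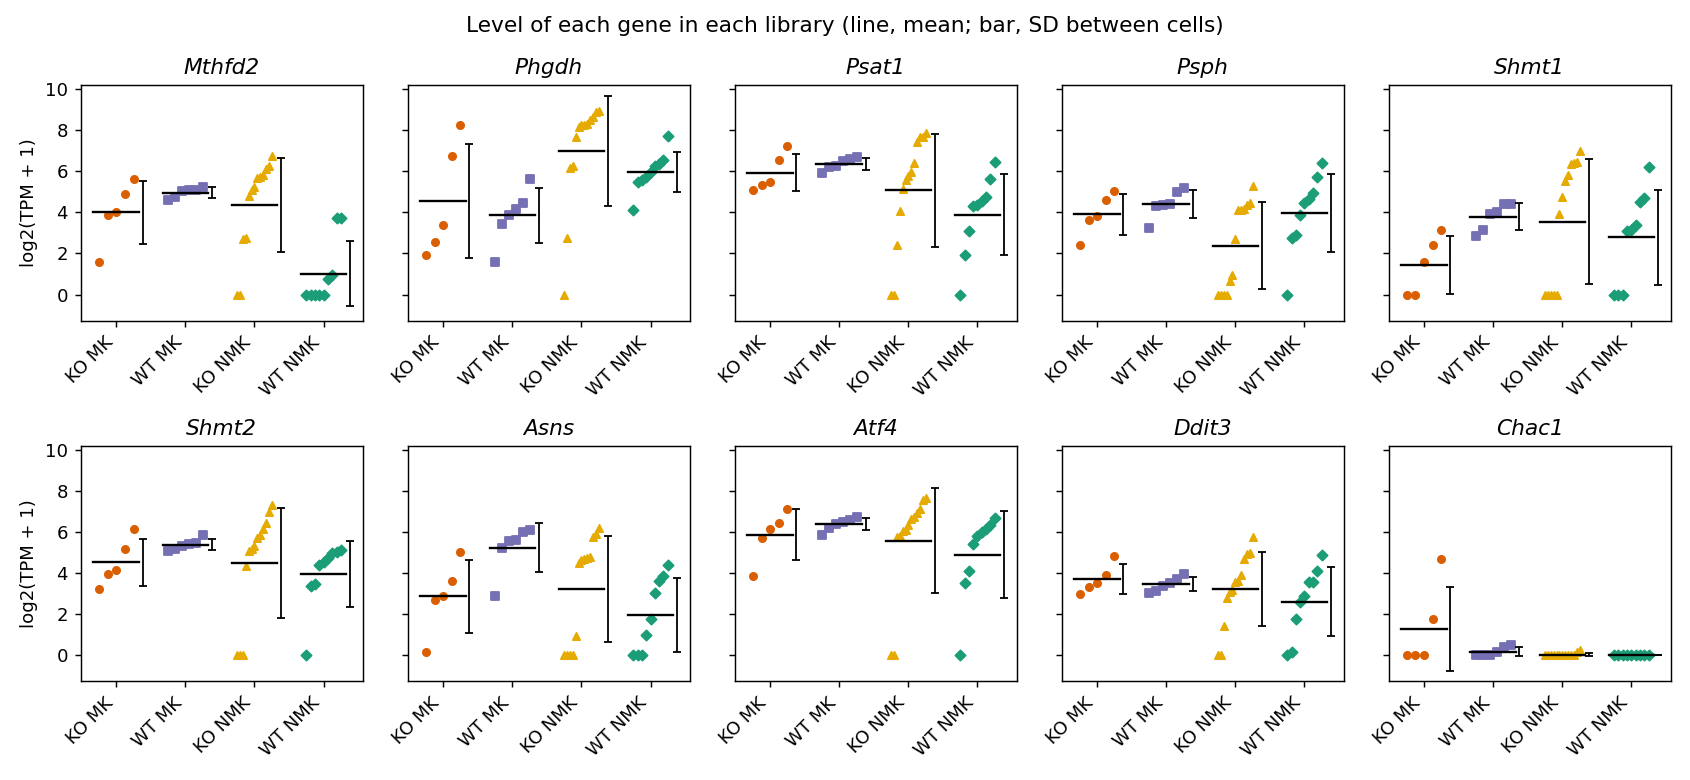
Level of each gene in each library as log2(TPM + 1), sorted by level within a group, with the group mean as a line and the SD between cells as a bar beside it. WT MK libraries lie close together for most genes, whereas NMK libraries of either genotype spread more widely, with libraries at 0 for most genes, and Chac1 stands above 1 TPM in only 2 KO MK libraries.

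Promoters of 3 of these genes are shown. In the windows scanned, Asns and Chac1 hold TGATGNAA, a form of the C/EBP-ATF response element that ATF4 binds with C/EBP partners. Mthfd2, on which the choice of the set turned, holds no match to it in its window. Each runs from 250 bases before to 50 bases after the RefSeq start on GRCm38.p6, read 5′ to 3′ on the gene's strand. Asns lies at chr6:7693160-7693459 (minus strand), Chac1 at chr2:119350992-119351291 (plus strand) and Mthfd2 at chr6:83317555-83317854 (minus strand). Capitals mark TGATGNAA on either strand in Asns and Chac1, and CCAAT on either strand in Mthfd2.
Asns: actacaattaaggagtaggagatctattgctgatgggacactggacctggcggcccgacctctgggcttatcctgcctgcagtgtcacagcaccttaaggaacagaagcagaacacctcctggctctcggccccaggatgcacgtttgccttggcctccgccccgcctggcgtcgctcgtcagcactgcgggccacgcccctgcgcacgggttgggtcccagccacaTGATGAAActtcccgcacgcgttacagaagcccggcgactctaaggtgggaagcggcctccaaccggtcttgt
Chac1: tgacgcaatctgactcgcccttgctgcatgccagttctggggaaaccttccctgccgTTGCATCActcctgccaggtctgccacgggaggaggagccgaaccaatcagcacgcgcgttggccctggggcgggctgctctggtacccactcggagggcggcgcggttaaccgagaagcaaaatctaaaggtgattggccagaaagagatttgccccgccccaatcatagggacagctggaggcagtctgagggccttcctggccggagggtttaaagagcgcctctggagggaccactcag
Mthfd2: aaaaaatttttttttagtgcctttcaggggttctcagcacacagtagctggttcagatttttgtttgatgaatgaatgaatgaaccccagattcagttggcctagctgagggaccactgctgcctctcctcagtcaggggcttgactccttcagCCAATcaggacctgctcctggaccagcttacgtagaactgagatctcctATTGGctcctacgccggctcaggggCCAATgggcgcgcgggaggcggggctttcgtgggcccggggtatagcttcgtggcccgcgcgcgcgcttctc
The motif TGATGNAA on either strand stood in 3.97% of 32851 promoters of the same length, and among the 11 promoters of the 10 genes (Psat1 has 2) it stood in Asns, 23 bases before the start, and in Chac1, 193 bases before it. CCAAT, the core of the motif bound by NF-Y, stood in 37.4% of all promoters. It was found in Mthfd2 at 96, 47 and 22 bases before the start, and also in Phgdh, Psat1, Psph, Shmt1, Atf4, Ddit3 and Chac1. The 2 motifs did not overlap in any of these promoters. The Mthfd2 window lies inside the span of that gene in GENCODE M21 (83305691 to 83325908), and no window at another start was scanned for it. A match, or the lack of one, describes the letters in this window and says nothing about binding in these cells.

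Phgdh, which commits a glycolytic intermediate to serine, had the highest median TPM of the 10 genes in NMK cells of either genotype. It lies on chromosome 3 at 98313170 to 98339990 in GENCODE M21 on GRCm38. Its level was 4.9, 9.3, 307.8, 105.5 and 2.8 TPM in KO MK libraries 1B, B1-3, B1-4, 2 and 1A, against 2.0 to 48.3 TPM (median 15.3) in WT MK libraries. It was 0 to 492.2 TPM (median 300.5) in KO NMK libraries, against 16.5 to 207.0 TPM (median 61.6) in WT NMK libraries. The KO MK libraries with 307.8 and 105.5 TPM were the 2 low in Pf4, and the other 3 lay within the WT MK range. The order of the group means on the log scale, from high to low, was KO NMK (6.99 ± 2.70), WT NMK (5.97 ± 0.96), KO MK (4.57 ± 2.78) and WT MK (3.86 ± 1.34; SD between 13, 9, 5 and 6 cells), and each neighbouring pair differed by less than its pooled SD. Without KO NMK libraries B1-1b and B1-2a, KO NMK lay above WT NMK by 2.03 (pooled SD 0.96).

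In WT cells Phgdh was lower in MK than in NMK libraries by 2.11 on the log2 scale (pooled SD 1.12), and all 6 MK libraries lay below the NMK median, though the groups overlapped. Without a prefix, 5 MK against 9 NMK libraries gave -1.66 (pooled SD 0.92). In KO cells the difference between MK and NMK libraries was -2.41 (pooled SD 2.72) and was not called. Without KO NMK libraries B1-1b and B1-2a it was -3.43 (pooled SD 1.69), called lower beside 3.35% of genes lower and 12.7% higher, and without KO MK libraries B1-4 and 2, left out instead, it was -4.37 (pooled SD 2.51), also a call. Between KO MK and WT MK cells Phgdh differed by 0.71 (pooled SD 2.10). Without B1-4 and 2 that value was -1.24 (pooled SD 1.19), which turned the direction and was called lower. It was also negative with medians over cells (-0.66) and without prefixed libraries (-0.57), and it was called higher as a ratio of mean TPM (2.15). Among prefixed libraries it was 4.23, from 2 KO MK libraries at 9.3 and 307.8 TPM against 1 WT MK library at 2.0 TPM. The SD beside that value, 3.47, came from the 2 KO MK cells alone. Over the 31 libraries left after setting aside B1-1b and B1-2a, Phgdh and Pf4 had a Spearman correlation of -0.82, which was -0.87 over 11 MK libraries and -0.55 over 20 NMK libraries. The libraries share genotypes and classes, and no p is given.

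**Figure D3:**
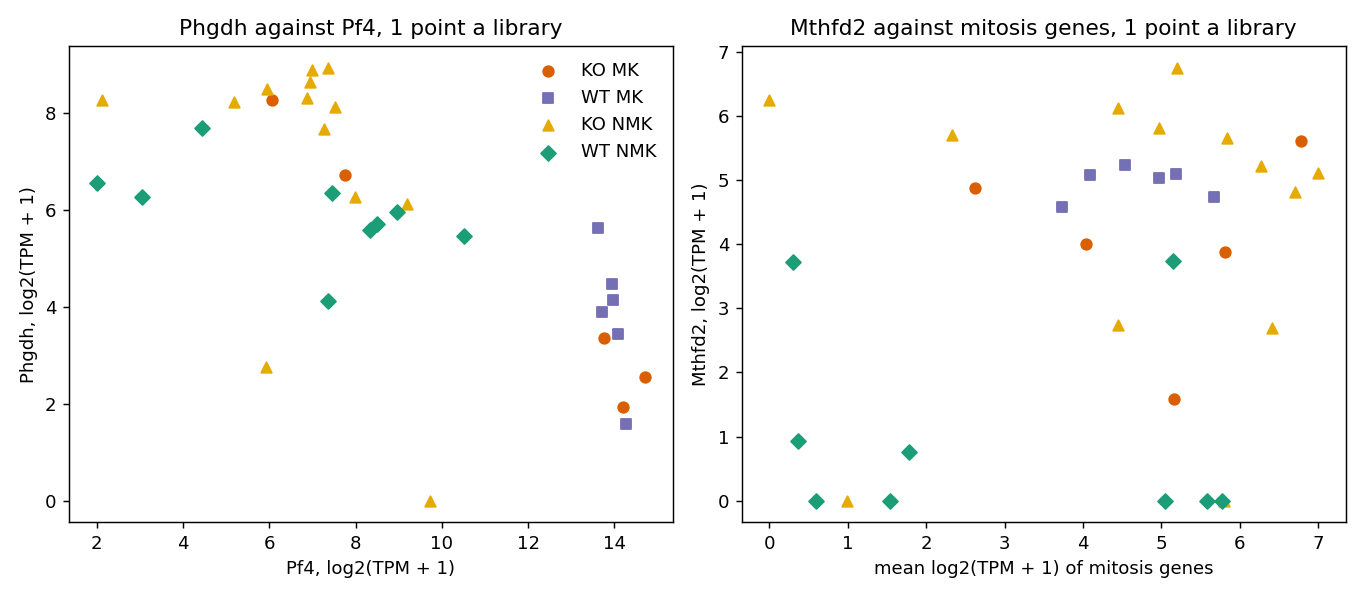
Left, Phgdh against Pf4, and right, Mthfd2 against the mean of mitosis genes, both axes as log2(TPM + 1), 1 point for each library and a colour and shape for each group. Phgdh is high in the KO MK libraries that lie among the NMK libraries on the Pf4 axis, and 5 of the WT NMK libraries lie at 0 for Mthfd2 at both low and high values of the mitosis genes.

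Psat1, the aminotransferase that follows PHGDH, was higher in MK than in NMK libraries of WT mice. Its level was 39.4, 148.5, 91.6, 32.6 and 44.3 TPM in KO MK libraries 1B, B1-3, B1-4, 2 and 1A, against 59.9 to 103.4 TPM (median 82.4) in WT MK libraries. NMK libraries ran from 0 to 234.1 TPM (median 53.3) in KO and from 0 to 86.3 TPM (median 19.2) in WT. The difference in WT cells was 2.47 (pooled SD 1.55), and each of the 6 MK libraries lay above the NMK median and 3 above every NMK library. The value without prefixed libraries was 2.56 (pooled SD 1.61), and with the libraries the authors had left out it was 0.31 (pooled SD 2.66), no longer a call. The other 3 comparisons gave 0.86 (KO MK minus KO NMK, pooled SD 2.41), -0.43 (KO MK minus WT MK, 0.64) and 1.18 (KO NMK minus WT NMK, 2.46), none of them called. Among libraries without a prefix, 3 KO MK libraries lay at 32.6 to 44.3 TPM and 5 WT MK libraries at 73.8 to 103.4 TPM, a difference of -1.15 (pooled SD 0.21). By contrast, the 2 prefixed KO MK libraries lay above the 1 prefixed WT MK library by 0.95 (SD 0.49 between the 2 KO MK cells alone).

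Psph, the phosphatase that releases serine, was called in none of the 4 comparisons. Its level was 4.4 to 32.0 TPM (median 13.2) in KO MK, 8.3 to 35.5 TPM (median 20.1) in WT MK, 0 to 37.5 TPM (median 5.6) in KO NMK and 0 to 83.2 TPM (median 21.1) in WT NMK libraries. Only 1 of 13 KO NMK libraries lay above the WT NMK median, and 4 were listed at 0 against 1 of 9. The difference between KO NMK and WT NMK libraries was -1.6 (pooled SD 2.03), the one negative value among the 9 measured members in that comparison. Psph overlaps Cct6a on the opposite strand, and since the strand setting of the counting is not given, reads of the pair cannot be told apart.

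Shmt1, the cytosolic enzyme, was lower in KO MK than in WT MK libraries. Its level was 0, 2.0, 0, 7.7 and 4.3 TPM in KO MK libraries 1B, B1-3, B1-4, 2 and 1A, against 20.3, 20.1, 15.0, 6.3, 7.7 and 14.1 TPM in WT MK libraries B1-1, 1, 2, 4, 1A and 1B. Of the 5 KO MK libraries, 4 lay below every WT MK library, and library 2 matched the second lowest of them at 7.7 TPM. The difference was -2.36 (pooled SD 1.06). It was -1.82 (pooled SD 1.08) among 3 KO and 5 WT libraries without a prefix, -3.62 between 2 KO libraries and 1 WT library with it, and -2.46 (pooled SD 0.85) without the libraries low in Pf4. The call was lost with a pseudocount of 10, at -0.90 (pooled SD 0.37), and with the libraries the authors had left out, at -1.30 (pooled SD 1.62).

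In NMK cells Shmt1 was listed at 0 in 5 of 13 KO NMK and 3 of 9 WT NMK libraries and reached 125.3 TPM in KO and 72.3 TPM in WT, with medians of 26.3 and 7.9 TPM. The difference of KO minus WT was 0.78 (pooled SD 2.76). All 5 KO MK libraries lay below the KO NMK median, and the difference of MK minus NMK in KO cells was -2.13 (pooled SD 2.71), or -2.78 (pooled SD 2.50), a call, without B1-1b and B1-2a. In WT cells it was 1.01 (pooled SD 1.84), not called. Shmt1 overlaps Smcr8 and the small nucleolar RNA gene Gm24945, both on the opposite strand.

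Shmt2, the mitochondrial enzyme, was higher by 1.43 (pooled SD 1.28) in MK than in NMK libraries of WT mice. Its level was 32.8 to 57.0 TPM (median 40.7) in WT MK and 0 to 33.8 TPM (median 22.6) in WT NMK libraries, and 5 of 6 MK libraries lay above every NMK library. That call rested on WT NMK library 1A, the only one listed at 0, without which the value was 0.93 (pooled SD 0.56). It was also lost with pseudocounts of 0.1 and 10, as a ratio of mean TPM (0.99), with medians over cells (0.82) and with the libraries the authors had left out, where it turned to -0.48. In MK cells the level was 8.2, 35.4, 68.8, 16.7 and 14.7 TPM in KO libraries 1B, B1-3, B1-4, 2 and 1A, of which 3 lay below every WT MK library and B1-4 above every one. The difference of -0.86 (pooled SD 0.79) fell short of the size for a call, and without B1-4 and 2 it was -1.27 (pooled SD 0.58), a call. In NMK cells it was 0 to 159.1 TPM (median 39.0) in KO, and 8 of 13 libraries lay above every WT NMK library although the difference of means was 0.53 (pooled SD 2.32).

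Mthfd2, the mitochondrial folate dehydrogenase, was listed at 1 TPM or more in all 11 MK libraries, in 11 of 13 KO NMK libraries and in 2 of 9 WT NMK libraries. It lies on chromosome 6 at 83305691 to 83325908 and overlaps the gene model Gm43890 on the same strand. KO NMK libraries held 107.3, 75.2, 68.7, 55.2, 51.4, 49.3, 36.2, 33.5, 27.1, 5.7 and 5.5 TPM in 3B, B1-2a, 4B, 5B, 4A, B1-2b, 1A, B1-3b, B1-5, 1 and 1B, and 0 in B1-1b and 3A. WT NMK libraries held 12.2 and 12.4 TPM in libraries 2 and 3A, 0.7 and 0.9 TPM in 2B and 4A, and 0 in the other 5. Thus 9 of 13 KO NMK libraries lay above every WT NMK library, while 2 were at 0 and the groups overlapped. Without B1-1b and B1-2a, 8 of 11 KO NMK libraries lay above every WT NMK library, 10 reached 1 TPM and 1 was at 0. The share of libraries at 1 TPM or more was 84.6% in KO NMK (11 of 13) and 22.2% in WT NMK libraries (2 of 9), given as a description of the values that led to the choice of the set.

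The difference of KO NMK minus WT NMK was 3.36 (pooled SD 2.04), and it was 3.59 (pooled SD 1.82) without B1-1b and B1-2a and 3.37 (pooled SD 1.96) among 8 KO and 9 WT libraries without a prefix. In MK cells Mthfd2 was 28.3, 47.9, 13.8, 2.0 and 15.1 TPM in KO libraries 1B, B1-3, B1-4, 2 and 1A, against 31.7, 36.8, 23.0, 33.4, 25.8 and 32.7 TPM in WT libraries B1-1, 1, 2, 4, 1A and 1B. Of the KO MK libraries, 3 lay below and 1 above every WT MK library, and the difference of -0.97 (pooled SD 1.03) was not called. It was called lower under 6 other settings, among them medians (-1.04), median-ratio rescaling (-1.15) and no prefixed libraries (-1.46, pooled SD 1.01), and it was -0.37 without library 2 and -0.13 without B1-4 and 2. All 6 WT MK libraries lay above all 9 WT NMK libraries, which 4.58% of measured genes did, and the difference was 3.95 (pooled SD 1.25). The WT NMK libraries that give this value are those whose low Mthfd2 led to the choice of the set. With the libraries the authors had left out, 5 of them WT MK libraries with housekeeping means of 3.52 to 5.61, the value was 2.02 (pooled SD 2.03) and no longer a call. From high to low, the order of mean log2(TPM + 1) was WT MK (4.96 ± 0.25), KO NMK (4.38 ± 2.29), KO MK (3.99 ± 1.52) and WT NMK (1.02 ± 1.58), of which WT MK, KO NMK and KO MK each lay within the pooled SD of the next in that order, while KO MK lay 2.98 above WT NMK (pooled SD 1.56).

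Atf4, the transcription factor of the response, was called in no comparison over all kept libraries. Its level was 70.9, 140.4, 13.3, 51.5 and 87.1 TPM in KO MK libraries 1B, B1-3, B1-4, 2 and 1A, and 57.5 to 103.6 TPM (median 86.4) in WT MK libraries. In NMK cells it was 0 to 200.8 TPM (median 79.7) in KO and 0 to 101.3 TPM (median 54.4) in WT libraries. The only KO NMK libraries at 0 were B1-1b and B1-2a, and the others held at least 52.8 TPM, whereas 4 WT NMK libraries lay below that, at 0, 10.6, 16.4 and 41.6 TPM. The difference of KO NMK minus WT NMK was 0.69 (pooled SD 2.38) with all libraries and 1.71 (pooled SD 1.49), a call, without these 2. In WT cells it was 1.48 for MK minus NMK (pooled SD 1.66), and all 6 MK libraries lay above the NMK median. KO MK minus WT MK gave -0.51 (pooled SD 0.86) and KO MK minus KO NMK 0.28 (pooled SD 2.30). Without B1-1b and B1-2a, KO MK minus KO NMK was -0.74 (pooled SD 0.87). These are levels of mRNA, while ATF4 is known to be set largely by translation.

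In MK libraries Asns was lower in KO than in WT, and within WT it was higher in MK than in NMK libraries. Its level was 5.5, 31.2, 0.1, 6.4 and 11.3 TPM in KO MK libraries 1B, B1-3, B1-4, 2 and 1A, against 6.4, 36.8, 67.8, 63.5, 47.5 and 45.6 TPM in WT MK libraries B1-1, 1, 2, 4, 1A and 1B. The WT library with the prefix stood far below the other 5, and the highest KO library lay below all 5 of those. NMK libraries held 0 to 72.6 TPM (median 23.6) in KO and 0 to 20.3 TPM (median 2.4) in WT. In WT cells MK minus NMK gave 3.27 (pooled SD 1.6), with 5 of 6 MK libraries above every NMK library, and without prefixed libraries 3.73 (pooled SD 1.49). With the libraries the authors had left out it was 1.26 (pooled SD 2.32), no longer a call.

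In MK cells the difference in Asns of KO minus WT was -2.36 (pooled SD 1.48). It was -2.63 (pooled SD 0.40) between 3 KO and 5 WT libraries without a prefix. Between 2 KO libraries and 1 WT library with the prefix it was -0.31 (SD 3.44 between the 2 KO cells alone), no call. The WT MK libraries without a prefix had pairwise Pearson correlations of 0.972 to 0.981 over all genes, above those of any other group, and counted as 1 sample they gave -1.44 (pooled SD 1.83), also no call. With the libraries the authors had left out it was -1.07 (pooled SD 2.34), again no call. Without B1-4 and 2 the value was -1.45 (pooled SD 1.18). KO MK minus KO NMK gave -0.37 (pooled SD 2.40). In NMK cells 8 of 13 KO libraries lay above every WT library and 4 were listed at 0, and the difference was 1.27 (pooled SD 2.30).

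Ddit3, which encodes CHOP, was called in no comparison over all kept libraries. Its level was 6.9, 14.1, 27.9, 9.1 and 10.4 TPM in KO MK libraries 1B, B1-3, B1-4, 2 and 1A, against 7.1 to 14.3 TPM (median 9.95) in WT MK libraries, and 0 to 52.5 TPM (median 10.7) in KO NMK against 0 to 28.7 TPM (median 6.5) in WT NMK libraries. Library B1-4 was the one MK library above the WT MK range, and the differences were 0.27 (KO MK minus WT MK, pooled SD 0.54) and 0.61 (KO NMK minus WT NMK, pooled SD 1.76). With the libraries the authors had left out, Ddit3 was called higher in KO MK than in WT MK cells. The difference was 1.599 (pooled SD 1.573). The 5 WT MK libraries added there held 0 to 0.7 TPM and had housekeeping means of 3.52 to 5.61. The 4 added KO MK libraries B1-1b, B1-1, B1-1a and 1 held 1.6, 2.7, 41.5 and 39.0 TPM. Mitochondrial transcripts made up 74.8% of B1-1a. The part of low library quality in this call was not tested. Ddit3 overlaps Mars, the methionyl-tRNA synthetase gene, on the opposite strand, and has a second, overlapping gene record, so its reads may be shared.

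Chac1 was detected at 1 TPM or more in 2 libraries of the table, KO MK B1-4 with 24.5 TPM and KO MK B1-3 with 2.4 TPM. The other 3 KO MK libraries were listed at 0, WT MK libraries held at most 0.4 TPM, KO NMK libraries at most 0.2 TPM, and all 9 WT NMK libraries were listed at 0. Both libraries carry the prefix B1, and the prefixed WT MK library was listed at 0. The difference of KO MK minus KO NMK was 1.26 (pooled SD 1.02), a call that ended without B1-4, at 0.41 (pooled SD 0.40). It was -0.02 (pooled SD 0.04) among libraries without a prefix and 3.17 (pooled SD 0.93) among those with it. KO MK minus WT MK gave 1.12 (pooled SD 1.37). B1-4 was thus the library with the highest Chac1, Ddit3, Shmt2 and Phgdh and the lowest Asns and Atf4 of the 5 KO MK libraries.

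The order of the group means of log2(TPM + 1) placed WT MK cells first for 7 of the 10 genes, Mthfd2, Psat1, Psph, Shmt1, Shmt2, Asns and Atf4. KO NMK cells came first for Phgdh, and KO MK cells for Ddit3 and Chac1. WT NMK cells came last for Mthfd2, Psat1, Shmt2, Asns, Atf4, Ddit3 and Chac1, WT MK cells for Phgdh, KO NMK cells for Psph and KO MK cells for Shmt1. Of the 30 steps between neighbours in these orders, 3 were larger than the pooled SD. They were KO MK above WT NMK for Mthfd2, WT MK above KO MK for Shmt2 (0.86, pooled SD 0.79) and WT MK above KO NMK for Chac1 (0.14, pooled SD 0.13), where all values lay below 1 TPM. Orders and steps changed without B1-1b and B1-2a. KO NMK then lay above WT MK for Atf4 (6.60 and 6.38) and Shmt1 (4.20 and 3.79). For Phgdh, KO NMK then lay above WT NMK by 2.03 (pooled SD 0.96).

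Genes of the same pathways outside the set were counted from fixed lists. In WT MK against WT NMK cells, 12 of 18 measured genes of endoplasmic reticulum chaperones and the unfolded protein response were higher and none lower, with a median difference of 1.32. The chaperone Hspa5 had means of 499.3 TPM in MK and 149.1 TPM in NMK libraries, a difference of 2.56 (pooled SD 2.01). Of aminoacyl-tRNA synthetases, which load amino acids onto tRNAs and include many ATF4 targets, 10 of 20 were higher and all 20 differences were positive. The glycyl enzyme Gars had means of 173.6 TPM in MK and 27.0 TPM in NMK libraries, at 3.16 (pooled SD 1.10). These shares stand beside the 25.6% of all genes that were higher in MK cells, and 2 of 14 housekeeping genes were also higher.

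Of other ATF4 target genes, 7 of 21 were higher and 1 was lower in that comparison, beside 25.6% of all measured genes higher and 3.33% lower. Their median difference was 0.73, against 0.70 over all measured genes. The aspartate aminotransferase Got1 had means of 44.1 TPM in MK and 5.76 TPM in NMK libraries (difference 4.26, pooled SD 1.48), and the amino acid transporter Slc7a5 had 17.9 TPM in MK and 1.3 TPM in NMK libraries (3.17, pooled SD 0.97). The stress protein gene Nupr1 was lower, at 3.2 TPM in MK and 586.2 TPM in NMK libraries (-5.11, pooled SD 3.71). Of folate enzymes 8 of 18 were higher and 2 lower, among the lower the formyltetrahydrofolate cyclo-ligase gene Mthfs at -1.37 (pooled SD 0.81). Mitosis genes were higher in 8 of 26 cases, with a median difference of 1.64.

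In KO MK against WT MK cells 3 of 22 ATF4 targets were higher and 2 lower, beside 9.74% of all measured genes higher and 7.07% lower. Their median difference was 0.12, against 0.09 over all measured genes. The pseudokinase gene Trib3 averaged 16.8 TPM in KO MK libraries, with an SD of 24.5 TPM between cells, and 0.9 TPM in WT MK libraries (2.40, pooled SD 1.54). The transcription factor gene Cebpb averaged 42.6 TPM in KO and 15.2 TPM in WT (1.41, pooled SD 1.31). Slc7a5 averaged 5.5 TPM in KO and 17.9 TPM in WT (-1.84, pooled SD 1.20). Of 15 measured genes of eIF2 stress signalling 1 was higher and 2 lower, with a median difference of -0.14. The higher was the eIF2 phosphatase subunit gene Ppp1r15a, with 71.3 TPM in KO MK and 21.1 TPM in WT MK libraries (1.79, pooled SD 0.62). The lower were Eif2s3x (-2.05, pooled SD 1.61) and Ppp1r15b (-1.33, pooled SD 1.21). Of 19 genes of endoplasmic reticulum chaperones and the unfolded protein response 2 were higher and 0 lower, with a median difference of 0.09. Among the higher was the unfolded protein response factor Xbp1, with 211.1 TPM in KO and 68.0 TPM in WT (1.58, pooled SD 0.49). No synthetase of 20 was called. Of folate enzymes 3 of 18 were lower and 1 higher, with the cytosolic synthase Mthfd1 at 19.5 TPM in KO MK and 32.9 TPM in WT MK libraries (-1.47, pooled SD 1.47) and thymidylate synthase Tyms at 12.3 TPM in KO and 25.7 TPM in WT (-1.06, pooled SD 0.50). All 28 DNA replication genes had negative differences, of which 5 were called, and 7 of 17 stem cell markers were higher in KO MK cells, with a median difference of 1.22. Among these markers Ly6a (3.06, pooled SD 2.94) had 199.0 and 342.2 TPM in KO MK libraries B1-4 and 2, low in Pf4, and 0.1 TPM or less in the others. No gene list was counted without these 2 libraries. The part of the replication genes and stem cell markers in the values of Shmt1 and Asns was not tested.

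**Figure D4:**
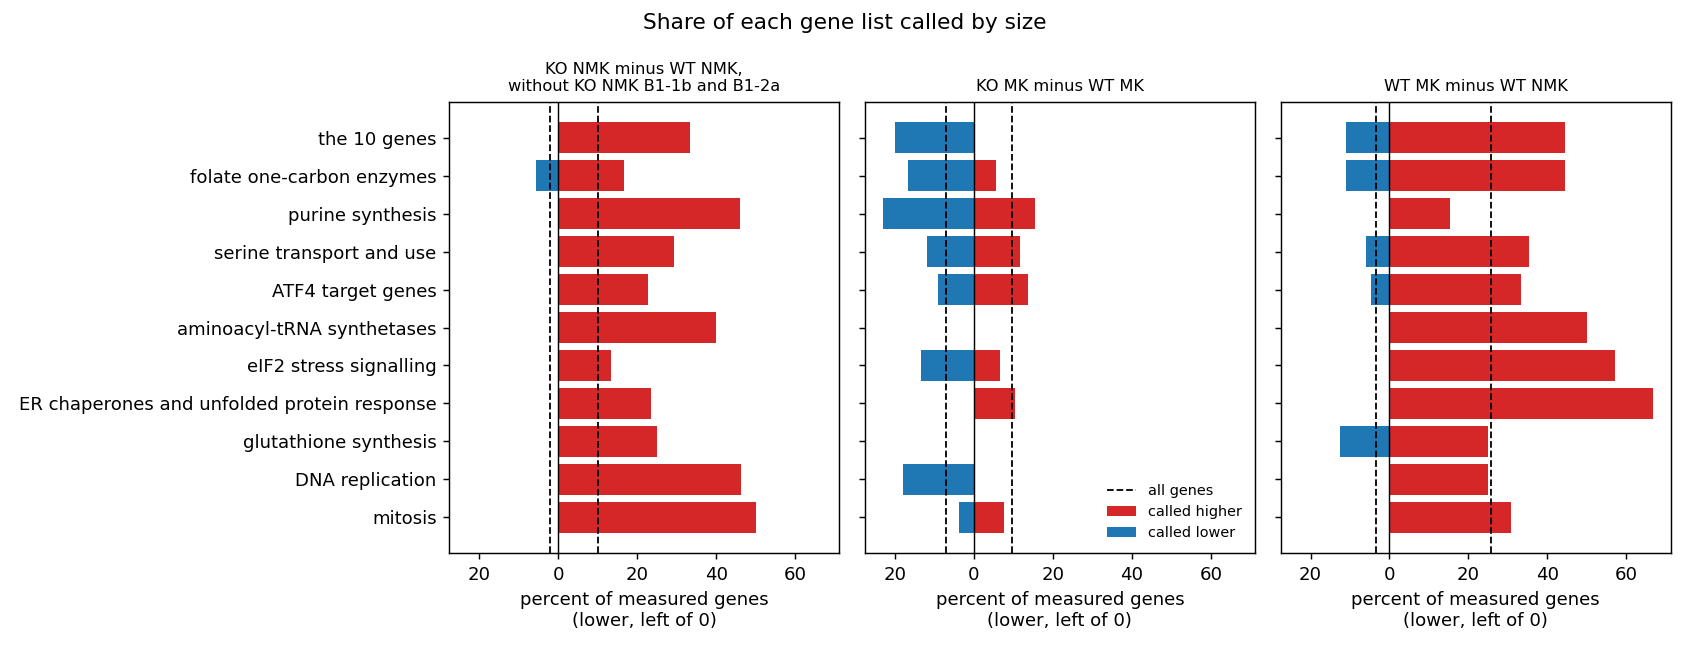
Percent of the measured genes of each list called higher (right of 0, red) and lower (left of 0, blue) in 3 comparisons, with the percent among all measured genes as dashed lines. In WT MK against WT NMK cells the chaperone list reaches 12 of 18 genes beside 25.6% of all genes, and in KO MK against WT MK cells 2 of the 10 genes and 5 of 28 replication genes are lower.

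In KO NMK against WT NMK cells without B1-1b and B1-2a, 10.2% of 11732 genes were higher and 2.06% lower, and 3 of 9 members, Mthfd2, Phgdh and Atf4, were among the higher. Phgdh there differed by 2.03 (pooled SD 0.96), with 8 of 11 KO libraries above every WT library. Housekeeping genes also had 14 of 14 positive differences, 6 of them called, with a median of 0.75. Of mitosis genes 13 of 26 were higher, with a median of 2.42, and of DNA replication genes 13 of 28. Purine synthesis, which uses the carbon carried by folate, had 6 of 13 genes higher, such as the IMP dehydrogenase gene Impdh2 with 252.0 TPM in KO NMK and 85.5 TPM in WT NMK libraries (1.68, pooled SD 0.73). Synthetases were higher in 8 of 20 cases and other ATF4 targets in 5 of 22. The part of cell cycle and housekeeping levels in the values of the members was not tested. With B1-1b and B1-2a set aside, Mthfd2 had a Spearman correlation with the proliferation gene Mki67 of 0.64 over 20 NMK libraries of both genotypes, 0.25 over the 11 KO NMK libraries among them and 0.80 over 11 MK libraries.

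Among the members, Psat1 and Shmt2 went together most closely over the 31 libraries, with a Spearman correlation of 0.74, while Mthfd2 and Atf4 had 0.85 over the 11 MK libraries, 0.31 over the 20 NMK libraries and -0.16 over the 11 KO NMK libraries. The gene most like Mthfd2 among 4483 well-expressed genes was Ssr1, a subunit of the translocon-associated complex of the endoplasmic reticulum, with a Spearman correlation of 0.85. It was followed by Lrrc59 (0.77), Ept1 (0.76), Cct7 (0.76), Bysl (0.75), Eno1b (0.75), Heatr3 (0.73) and Etf1 (0.73), of which Eno1b is uncertain as a near-identical copy of Eno1. The nearest members were Shmt2, at rank 428 with 0.47, and Atf4, at rank 466 with 0.46. Most like Atf4 were Sar1a (0.75), Gspt1 (0.73), Cndp2 (0.71), Eif3c (0.69), Hnrnph2 (0.67), Gosr2 (0.66) and Rpn1 (0.66). These correlations describe libraries that share groups, and no p is given.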

How the data were processed

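Gene expression was measured in single cultured cells with SMART-Seq kits, per the labels. The authors deposited TPM per gene, rounded to 1 decimal. The larger deposited table holds 46 libraries, and the other, used here, holds the 33 that remained after the authors took outliers out. FastQC 0.11.7, cutadapt 1.9.1, STAR 2.6.1e, featureCounts 1.6.2 and mm10 are named in the submitters' processing notes. No source used here gives the annotation, the strand setting, the step to TPM or how outliers were chosen. TPM sums to 1000000 in every library, so depth is unknown, a few abundant transcripts lower all others, and the number of cells limits the precision. Not analysed here were 44 of the 90 samples with labels and 1 column with none.

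Differences were taken on log2(TPM + 1), which understates those of low genes, beside the pooled SD between cells. Genes with a mean of 1 TPM in a group counted as measured. Lists could be illustrated by called genes averaging at least 10 TPM, at most the 4 with the largest difference per list. The 8 genes most like Mthfd2 and Atf4 were taken among genes with a mean of 10 TPM and 1 TPM in 50% of libraries. Some genes that these rules name are not reported here. The members and lists were chosen with earlier results of these data known. Alternatives were the full table, pseudocounts, averages, scalings, filters, title prefixes and left-out libraries, and leaving out the libraries low in Pf4 was added after seeing the data. Positions are from GENCODE M21 and promoters from RefSeq. The scripts, run with Python 3.11.15, scipy 1.17.1, numpy 2.4.6, matplotlib 3.10.9 and pandas 2.3.3, were tested on simulated data.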

Additional observations from a re-analysis of the deposited data

Results flagged for a closer look

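Within groups of 4 to 10 cells, the highest and lowest value of each gene on the log2(TPM + 1) scale were compared with the others by Dixon's ratio, which chance passes in about 1 in 20 groups. Of 29 gene and group pairs, 3 passed. Shmt2 was listed at 0 in WT NMK library 1A, Atf4 was listed at 0 in WT NMK library 1, and Asns was 6.4 TPM in WT MK library B1-1, the only prefixed library of that group.

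The libraries that the authors left out of the main table held 130 values of these genes, of which 10 lay above every kept WT library of the same class. KO NMK library B1-1a, whose housekeeping mean of 10.13 lay within the range of the kept KO NMK libraries, held 21.5 TPM of Mthfd2, 439.5 TPM of Phgdh, 117.7 TPM of Psat1, 79.4 TPM of Shmt1, 132.2 TPM of Shmt2 and 142.3 TPM of Atf4. Ddit3 was 41.5 TPM in KO MK library B1-1a and 39.0 TPM in KO MK library 1, with housekeeping means of 5.59 and 9.14. Mitochondrial transcripts made up 74.8% of KO MK B1-1a. Atf4 was 163.6 TPM in WT MK library B1-2 and 2831 TPM in WT MK library B1-1b. These WT MK libraries had 2676 and 2666 detected genes and housekeeping means of 5.58 and 5.20, below every kept WT MK library.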

How the results depend on the processing

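No paired analysis was possible because the labels give no animal or culture for a cell. They also do not say whether libraries whose names share a number and end in A or B are related. The counts below join calls in either direction, and percentages in brackets are the share of all measured genes called under the same setting. The count of genes called between KO NMK and WT NMK cells was 1 (4.71%). It was 3 with medians over cells (14.6%), 2 without prefixed libraries (12.3%) and 3 without KO NMK B1-1b and B1-2a (12.2%). The count between KO MK and WT MK cells was 2 (16.8%). With all libraries it was 1 (3.16%), which was Ddit3, higher, and neither Shmt1 nor Asns was called. It was 1, lower, with a pseudocount of 10 (5.53%) or with the unprefixed WT MK libraries counted as 1 (15%). It was 4 with the ratio of mean TPM (25.7%), 2 higher and 2 lower. It was also 4, all lower, with medians (21%), median-ratio rescaling (17.3%) or without the Pf4-low libraries (23.7%). Without prefixed libraries it was 5 (21.5%), all lower, and the median difference of -0.51 became 0.51 among prefixed libraries. The count between KO MK and KO NMK cells was 1 (14%). It was 2, with 1 higher and 1 lower, for the ratio of mean TPM (27.3%) or with mitochondrial and ribosomal protein genes removed (12.9%). With prefixed libraries alone it was 2 (27.2%), all higher. With a pseudocount of 10 (5.3%) or medians (25.6%) it was 2, Phgdh and Shmt1 lower, and Chac1 was not called. It was 3 without B1-1b and B1-2a (16.1%), 1 higher and 2 lower, and 0 with a minimum mean of 10 TPM (15%). With all libraries it stayed 1 (5.25%), which was Phgdh, lower at -3.53 (pooled SD 3.30), in place of Chac1. Between WT MK and WT NMK cells the count of 5 (28.9%) became 1 with all libraries (8.28%). Only Phgdh, lower, was still called there, and the median of 1.43 became -0.18. Of the called values, those that changed sign were Chac1 at -0.017 between KO MK and KO NMK cells without prefixed libraries, and Shmt2 at -0.48 between WT MK and WT NMK cells with all libraries. Differences that were not called changed sign as well, among them Psat1 (0.95), Psph (0.995) and Shmt2 (0.58) between KO MK and WT MK cells among prefixed libraries. The causes were not tested.

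Leaving out each library in turn gave counts of 1 to 2 between KO NMK and WT NMK cells (2 without WT NMK 1 or KO NMK B1-2a), 2 to 4 between KO MK and WT MK cells (4 without KO MK 1B or B1-3), 1 to 2 between KO MK and KO NMK cells (2 without KO NMK B1-1b, B1-2a or KO MK 2) and 4 to 6 between WT MK and WT NMK cells. Shares of all measured genes called ran from 4.43% to 7.53%, 15.6% to 20.5%, 13.1% to 17.3% and 27.4% to 31.4% in the same order. Median differences of the members ran from 0.60 to 1.16, -0.79 to -0.41, -0.21 to 0.31 and 1.02 to 1.57 in these comparisons. Of the 8 genes most like Mthfd2, 4 were shared when all 33 libraries were used and 3 with Pearson's coefficient. Rescaling moved the median over all genes between KO NMK and WT NMK cells to -0.02. Prefixed libraries alone gave no value against WT NMK cells, and a value of 0 may reflect few captured molecules, which TPM does not show.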
